A study of Mus musculus with 8 samples.

Results

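The chitinase-like proteins and lysozymes of the mouse distal lung were described gene by gene across α7 genotype and cigarette smoke (CS). Members were all genes whose symbol was Chi3l followed by a digit, Chia with or without a digit, Chit1, Chid1, Lyz1 or Lyz2. Of 22756 genes in each library 9 were members, and 6 of these 9 passed the abundance filter (a raw count averaging 200 or more across libraries).

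RNA-Seq was done on cells of the distal lung that were enriched for epithelium. Lavage fluid was removed, CD45-positive cells (leukocytes) were depleted with magnetic beads, and per the labels nearly all remaining cells carried the epithelial marker epCAM. Adult mice of mainly C57BL/6 background were either α7G (Chrna7-IRES-tauGFP, the normal nicotinic α7 receptor gene linked to a GFP reporter) or α7E260A:G (Chrna7-E260A-IRES-tauGFP, the same reporter with a point change in the receptor that limits its calcium coupling), so that the reporter was shared by all groups and neither allele was restricted to a cell type. CS mice received side-stream smoke on 5 days per week for 4 months and the others were controls, with 1 male and 1 female library in each of 4 groups. The number of mice in a library was not given, so tests measured only the spread between libraries, and the spread in a group was the difference between a male and a female library.

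The members belong to a pair of enzyme families. Chitinases of the glycosyl hydrolase family 18 cleave chitin, the polymer of insects and fungi, and the chitinase-like proteins share their fold but lack the catalytic activity, and bind sugars instead. Lysozymes cut the peptidoglycan of bacterial walls. In the mouse lung Chi3l3 (Ym1) and Lyz2 (lysozyme M) are abundant transcripts of macrophages, Lyz2 is also made by alveolar type II (AT2) cells, and Chia (acidic mammalian chitinase) is secreted by airway epithelium.

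Libraries held 8020726 to 10944100 counts, so that 3 counts were 0.274 to 0.374 RPM (counts scaled to a common library total of 1000000). Chrna7 itself was at 0 counts in 7 of 8 libraries and at 4 in the other, which left no check of genotype from its level. The epithelial label was checked against markers. Epcam was present in all libraries (131 to 212 RPM in α7G, 78.5 to 92.3 RPM in α7E260A:G), but so was the leukocyte gene Ptprc, which encodes CD45 (771 to 1940 RPM in α7G, 847 to 1850 RPM in α7E260A:G). In such bulk samples fewer cells of a type and less RNA per cell cannot be told apart.

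A pair of lysozyme genes and a pair of chitinase-like genes are close copies, and their sequences are shown because reads from shared stretches could be assigned to neither or to the wrong copy. Lyz2 (chr10:116714390-116719377, minus strand, build NCBIM37) and Lyz1 (chr10:116724852-116729924, minus strand) lie side by side. Their coding sequences of 447 bases differed at 22 positions (95.1% identity), and 20.1% of the windows of 50 bases in Lyz1 also occurred in Lyz2. Coding exon 2 of 4 is printed 5′ to 3′ from Lyz2 (chr10:116717697-116717861) and from Lyz1 (chr10:116728085-116728249), with the 6 bases that differ in capitals.
Lyz2 coding exon 2: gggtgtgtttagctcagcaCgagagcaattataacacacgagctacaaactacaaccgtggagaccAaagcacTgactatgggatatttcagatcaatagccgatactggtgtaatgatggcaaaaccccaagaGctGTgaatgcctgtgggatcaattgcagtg
Lyz1 coding exon 2: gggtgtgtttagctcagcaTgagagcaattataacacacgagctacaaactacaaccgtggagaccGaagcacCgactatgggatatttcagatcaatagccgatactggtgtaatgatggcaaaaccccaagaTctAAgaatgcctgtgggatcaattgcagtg

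Chi3l3 (chr3:105950472-106022425, minus strand) and Chi3l4 (chr3:106004408-106022425, minus strand) are related in the same way. Over 1197 aligned bases they differed at 56 (95.3% identity), and 20.4% of the windows of 50 bases in Chi3l4 occurred in Chi3l3. The annotated Chi3l3 gene also spans Chi3l4, and 25 coding bases are shared by annotation. Coding exon 3 of 11 is printed from Chi3l3 (chr3:105967008-105967209) and Chi3l4 (chr3:106017193-106017394), with the 10 differing bases in capitals.
Chi3l3 coding exon 3: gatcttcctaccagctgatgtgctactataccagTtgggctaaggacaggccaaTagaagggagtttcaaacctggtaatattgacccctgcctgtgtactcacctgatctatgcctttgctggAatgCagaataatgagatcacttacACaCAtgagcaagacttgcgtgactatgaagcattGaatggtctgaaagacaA
Chi3l4 coding exon 3: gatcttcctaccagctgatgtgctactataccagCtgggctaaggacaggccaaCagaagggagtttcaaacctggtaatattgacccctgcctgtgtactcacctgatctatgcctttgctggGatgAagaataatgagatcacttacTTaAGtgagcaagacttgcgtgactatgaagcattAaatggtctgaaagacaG

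The other members were Chi3l1 (chr1:136078753-136086758, plus strand), Chit1 (chr1:136007819-136048117, plus strand), Chia (chr3:105916147-105935038, plus strand), Chi3l7 (chr3:105819837-105835813, minus strand) and Chid1 (chr7:148679035-148725756, minus strand). All 9 are protein coding in the annotation. Levels of different genes were compared as RPM per kilobase of coding sequence (RPKM). In α7G libraries the order of the mean RPKM (± SD, n = 4) was Lyz2 with 22540 ± 2983, Chi3l3 with 8153 ± 2361, Chi3l1 with 500.1 ± 74.6, Lyz1 with 429 ± 165, Chia with 99.0 ± 26.5, Chid1 with 23.4 ± 4.07, Chi3l4 with 6.17 ± 4.25, Chi3l7 with 1.27 ± 0.702 and Chit1 with 0.674 ± 0.609. The ranges of Chi3l1 and Lyz1 overlapped, as did those of Chi3l7 and Chit1. In α7E260A:G libraries Lyz1 (188 ± 126) stood before Chi3l1 (165 ± 65.3) in mean, again with overlapping ranges. Lyz2 stood above Chi3l3 per kilobase in each library, at 36320 ± 12280 against 20830 ± 5719 in α7E260A:G.

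The 9 members together took 1.54 to 2.58% of all counts in α7G libraries and 2.77 to 5.27% in α7E260A:G libraries. Chi3l3 and Lyz2 made up nearly all of this. The members did not move as a family, however: Chi3l3 and Lyz2 were higher in the α7E260A:G libraries of each matched pair, while Chi3l1, Lyz1 and Chia were lower in each matched pair.

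**Figure D1:**
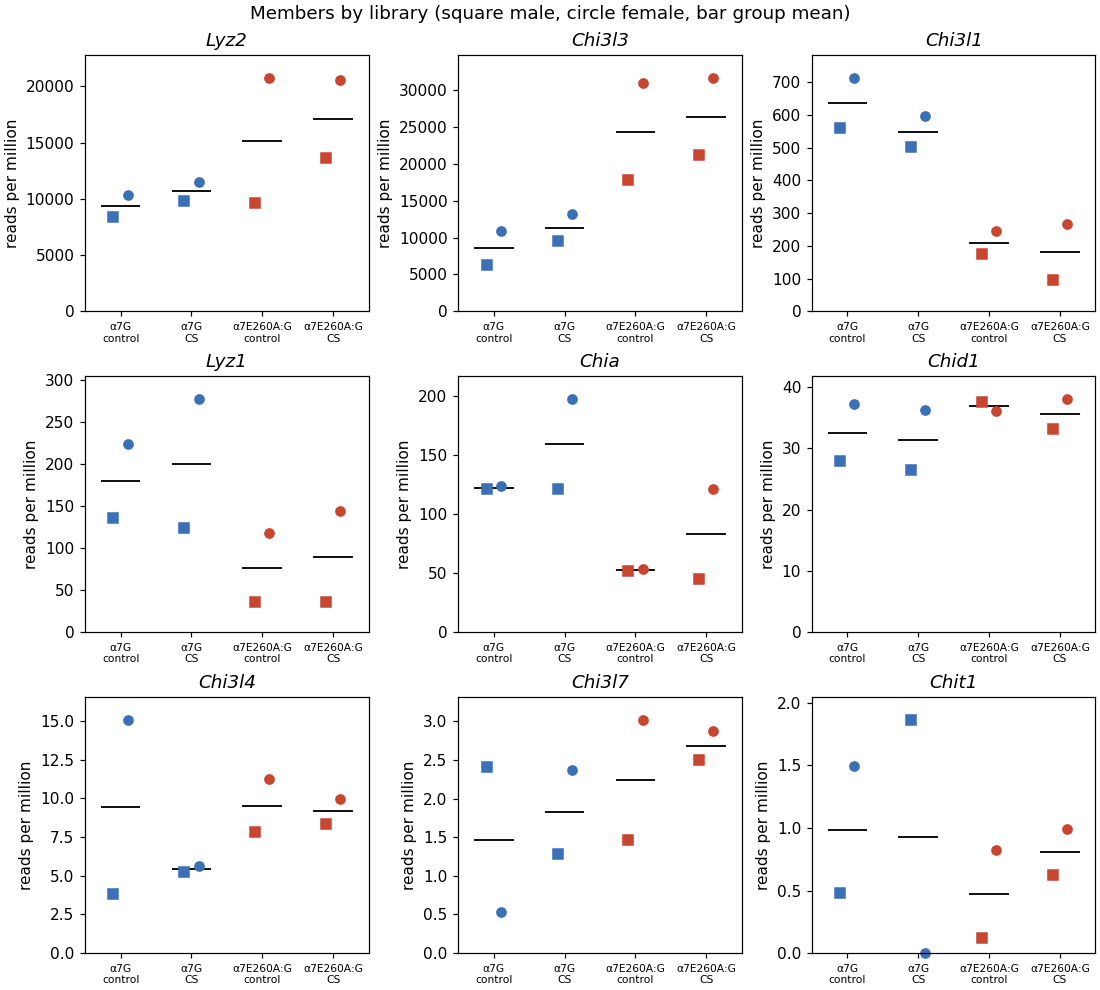
Each panel plots RPM of 1 member in the 8 libraries, by genotype and exposure (blue α7G, red α7E260A:G, squares male, circles female, bars group means, linear axes from 0). Chi3l3 is higher and Chi3l1 lower in all 4 α7E260A:G libraries than in any α7G library, and Lyz2, Lyz1 and Chia overlap between genotypes.

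The first comparison asked whether the members differed between genotypes over both exposures. Chi3l3, a chitinase-like protein that macrophages secrete and that can form crystals in the lung, was at 6245 (male) and 10830 (female) RPM in α7G controls and at 9540 and 13140 RPM in α7G after CS. In α7E260A:G it was at 17750 and 30960 RPM in controls and at 21210 and 31630 RPM after CS. Every α7E260A:G library stood above every α7G library, and the female library was above the male library in all 4 groups. The mean was 2.55-fold higher in α7E260A:G (exact permutation test, two-sided, p = 0.0286, the smallest that 4 against 4 libraries allow). The matched pairs of equal sex and exposure gave ratios of 2.22 to 2.86. With any 1 of the 4 α7G libraries left out the groups still did not overlap and the p was 0.0571 (exact permutation).

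Chi3l1 (YKL-40 or BRP-39), a chitinase-like protein of epithelium and macrophages that is linked to tissue injury, went the other way. It was at 561 and 712 RPM in male and female α7G controls and at 503 and 596 RPM after CS, against 174 and 245 RPM in α7E260A:G controls and 95.5 and 267 RPM after CS. No α7E260A:G library reached the lowest α7G library. The mean was 3.04-fold lower in α7E260A:G (exact permutation p = 0.0286), and the matched pairs were 2.24-fold to 5.26-fold lower.

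Over all 7190 genes tested, 8.14% had genotypes whose RPM did not overlap, 2.99% higher and 5.15% lower in α7E260A:G. Among the 6 members tested there were 2, Chi3l3 in the first direction and Chi3l1 in the second. Chi3l4, Chi3l7 and Chit1, which were below the abundance filter, overlapped between genotypes.

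Lyz2, the lysozyme of macrophages and AT2 cells, was at 8336 and 10350 RPM in male and female α7G controls and at 9823 and 11530 RPM after CS. In α7E260A:G it was at 9600 and 20720 RPM in controls and at 13650 and 20530 RPM after CS. The male α7E260A:G control lay within the α7G range, and the other 3 α7E260A:G libraries lay above it. The mean was 1.61-fold higher in α7E260A:G (exact permutation p = 0.114, a test that takes no account of sex). This did not exceed the spread between libraries, which includes the difference between sexes. The matched pairs gave ratios of 1.15 to 2. Without the male α7E260A:G control it was 1.83-fold higher with no overlap (exact permutation p = 0.0286).

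Lyz1 (lysozyme P), the copy known from Paneth cells of the gut, was at 136 and 224 RPM in male and female α7G controls and at 124 and 277 RPM after CS. In α7E260A:G it was at 35.6 and 118 RPM in controls and at 36.3 and 144 RPM after CS. Both male α7E260A:G libraries were below all others, and the female α7E260A:G libraries lay near the male α7G libraries. The mean was 2.28-fold lower in α7E260A:G (exact permutation p = 0.114, a test that takes no account of sex), and the matched pairs of equal sex and exposure were 1.91-fold to 3.82-fold lower.

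Chia, the acidic chitinase that digests chitin, was at 121 and 123 RPM in male and female α7G controls and at 121 and 197 RPM after CS. In α7E260A:G it was at 51.7 and 53.6 RPM in controls and at 45.3 and 121 RPM after CS. The female α7E260A:G library after CS reached the 2 male α7G libraries, and the other 3 were at 53.6 RPM or less. The mean was 2.07-fold lower (exact permutation p = 0.0857), and without that library the genotypes did not overlap (exact permutation p = 0.0286). Chid1, a widely made protein with a chitinase-like domain, lay between 26.5 and 38.1 RPM in all libraries, with a mean 1.13-fold higher in α7E260A:G (exact permutation p = 0.229).

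Fitted across all 7190 genes with edgeR, 0 of the 6 members passed an adjusted p of 0.05 for genotype, and 0.0834% of all genes did (0.0695% higher and 0.0139% lower in α7E260A:G). The log2 fold change of α7E260A:G over α7G was 1.47 ± 0.40 (SE) for Chi3l3 (edgeR adjusted p = 0.177) and -1.49 ± 0.39 for Chi3l1 (edgeR adjusted p = 0.171). Before adjustment Chi3l3, Chi3l1 and Chia were under 0.05, against 11.9% of all genes. DESeq2 on the same counts called Chi3l3 (adjusted p = 0.00281) and Chi3l1 (adjusted p = 0.0066), where it called 5.87% of all genes (3.67% higher and 2.2% lower).

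The libraries differed in how counts depended on coding length. The slope of the log2 level of a gene, relative to its mean over libraries, on its log2 coding length ran from -0.243 (male α7G after CS) to 0.409 (male α7E260A:G control), and the coding length is 444 bases for both lysozymes and 1186 to 1423 bases for the chitinase family. With this dependence entered as an offset, edgeR called Chi3l3 (adjusted p = 0.0221), Chi3l1 (adjusted p = 0.0237) and Lyz2 (adjusted p = 0.0263), at log2 fold changes of 1.46, -1.51 and 0.73, where 6.62% of all genes were called (4.02% higher and 2.6% lower). Lyz1 and Chia had adjusted p = 0.099 and 0.107 in that fit. Removed from the log2 RPM of single genes, the same dependence left 4 members without overlap between genotypes (Chi3l3, Lyz2, Chi3l1 and Chia), against 12.1% of all genes tested (4.24% higher and 7.9% lower). So the direction of each of the 6 members was as in the RPM, and the calls depended on the model.

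**Figure D2:**
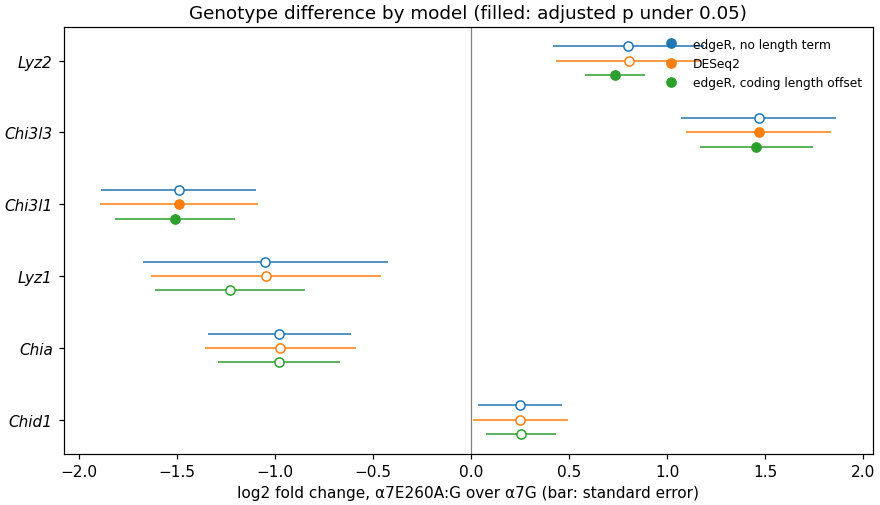
The log2 fold change of α7E260A:G over α7G is plotted for the 6 members past the abundance filter under edgeR, DESeq2 and edgeR with an offset for coding length (points, bars standard errors, filled where the adjusted p was under 0.05). Chi3l3 and Chi3l1 are filled under DESeq2 and the offset, Lyz2 under the offset, and none under edgeR without the offset.

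Ratios of members within a library do not depend on its depth or on how it was scaled. The Lyz1 count was 1.26 to 2.41 per 100 Lyz2 counts in the 4 α7G libraries and 0.266 to 0.701 in the 4 α7E260A:G libraries. The mean log2 ratio was -5.79 ± 0.42 (SD, n = 4) in α7G and -7.81 ± 0.63 (n = 4) in α7E260A:G, a 4.07-fold difference (exact permutation p = 0.0286). Both genes have the same coding length, so that the length dependence of a library cancels. How reads of the stretches that the copies share were assigned was not tested.

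For Chi3l1 against Chi3l3 there were 4.54 to 8.99 Chi3l1 counts per 100 Chi3l3 counts in α7G and 0.45 to 0.977 in α7E260A:G. The difference of the mean log2 ratio was 8.33-fold (exact permutation p = 0.0286). For Chi3l3 against Lyz2 the log2 ratio of counts was -0.05 ± 0.26 in α7G and 0.68 ± 0.14 in α7E260A:G (1.66-fold, exact permutation p = 0.0286), and with the length dependence removed the groups overlapped (exact permutation p = 0.0857). The low copy Chi3l4 gave 0.0429 to 0.139 counts per 100 Chi3l3 counts in α7G and 0.0315 to 0.0439 in α7E260A:G (exact permutation p = 0.0571). The separation of Chi3l1/Chi3l3 was fixed by the RPM of both genes, which did not overlap between genotypes and went in opposite directions. It restates those differences and is not a separate result. Of 8 ratio tests, 4 by genotype and 4 by CS, 3 reached the smallest p, all by genotype and with Chi3l1/Chi3l3 among them.

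**Figure D3:**
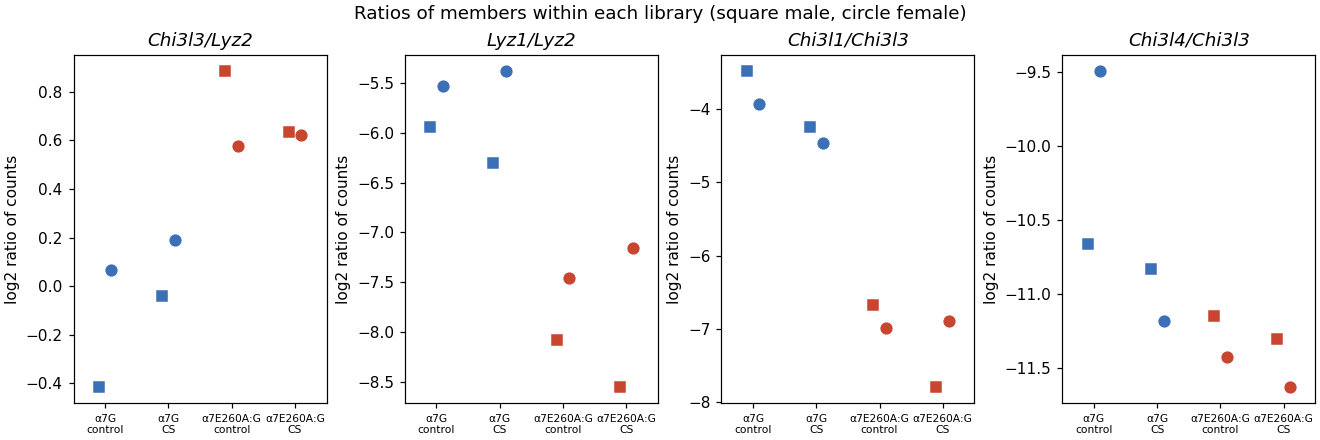
The log2 ratio of the counts of a pair of members is plotted for each library (blue α7G, red α7E260A:G, squares male, circles female). The genotypes do not overlap for Chi3l3/Lyz2, Lyz1/Lyz2 and Chi3l1/Chi3l3, and for Chi3l4/Chi3l3 the female α7G control stands apart.

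The next comparison asked how the members differed after CS. None of the 6 was called, over both genotypes, in α7G, in α7E260A:G or for the difference between genotypes in the CS response, and 0% of all genes were called in each (edgeR, all 8 libraries in 1 model). Fitted on the 4 α7G libraries alone, edgeR called 16% of all genes for CS in α7G and again no member, with Chia nearest (log2 fold change 0.50 ± 0.24, edgeR adjusted p = 0.174) and Chi3l3 next (0.52 ± 0.32, edgeR adjusted p = 0.29). Fitted on the 4 α7E260A:G libraries alone it called 0% and no member. At an unadjusted p under 0.05 there were 545 genes for CS over both genotypes (7.58%) and no member, and no member either for CS in α7G (6.68% of all genes), CS in α7E260A:G (1.7%) or the difference (1.42%). DESeq2 called no member in these 4 comparisons, against 0.542%, 0.355%, 0.153% and 0.0417% of genes. By RPM no member was without overlap between CS and control, against 2.07% of all genes (1.66% higher and 0.417% lower), or 2.5% (1.54% and 0.96%) with the length dependence removed. Chi3l3 was higher after CS in all 4 pairs of equal genotype and sex, by 1.53-fold and 1.21-fold in male and female α7G and by 1.19-fold and 1.02-fold in α7E260A:G, and the CS and control libraries overlapped (exact permutation p = 0.743). Its edgeR log2 fold change over both genotypes was 0.26 ± 0.39 (adjusted p = 0.8).

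Lyz2 was higher after CS in 3 of 4 pairs, with 20530 RPM after CS against 20720 RPM in control in the female α7E260A:G pair. Its log2 fold change was 0.17 ± 0.38 (edgeR adjusted p = 0.861), and that of Lyz1 was 0.19 ± 0.62 (edgeR adjusted p = 0.905). With the offset for coding length both signs turned, to -0.12 and -0.09. Chia differed by sex: after CS it was 1.6-fold and 2.26-fold of control in the females of α7G and α7E260A:G and 1-fold and 0.876-fold in the males (both genotypes and sexes together, exact permutation p = 0.6), a difference between sexes that was not tested. Chi3l1 was lower after CS in 3 of 4 pairs (log2 fold change -0.19 ± 0.39, edgeR adjusted p = 0.853) and Chid1 in 3 of 4 (-0.03 ± 0.21, edgeR adjusted p = 0.954).

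Members at low counts gave little more than presence. Chi3l4 (Ym2) had 32 to 141 counts per library, with means of 7.44 ± 5.13 RPM (SD, n = 4) in α7G and 9.34 ± 1.56 RPM in α7E260A:G (exact permutation p = 0.514). Chi3l7 had 5 to 33 counts per library and means of 1.65 ± 0.907 and 2.46 ± 0.702 RPM (exact permutation p = 0.171). Chit1, the chitotriosidase of macrophages, had 0 to 16 counts per library and means of 0.959 ± 0.866 and 0.641 ± 0.378 RPM (exact permutation p = 0.514). With 0 of 8864571 counts in the female α7G library after CS, a Chit1 level of up to 0.338 RPM was allowed (counting error only).

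Across the 8 libraries the members fell into sets by likeness of pattern. Pearson's r of log2 RPM was 0.902 between Chi3l3 and Lyz2, and 0.879, 0.863 and 0.873 for Chi3l1 with Lyz1, Chi3l1 with Chia and Lyz1 with Chia. Between the sets it was -0.667 for Chi3l1 with Chi3l3 and 0.02 for Lyz1 with Lyz2. The points share libraries, genotypes and depth, so these values are descriptions. Of the 7184 other genes past the filter the 3 most like Chi3l3 were Krt79 (0.985), Ms4a6d (0.976) and Fabp4 (0.968), and those most like Lyz2 were Pon3 (0.979), Il18 (0.974) and Ccl6 (0.966). Those most like Chi3l1 were Napsa (0.981), Acot7 (0.978) and Sftpa1 (0.972), and those most like Lyz1 were Sftpc (0.969), Sftpd (0.967) and Sftpa1 (0.956), that is surfactant genes of AT2 cells. Elovl1 (0.987), Pon1 (0.955) and Haus8 (0.948) were most like Chia, and Hspa13 (0.938), Pdia4 (0.895) and Tlr8 (0.866) most like Chid1.

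Marker lists of cell types moved with these sets, which is partly built in because the lists hold genes just named as most like the members. Krt79, Fabp4, Il18 and Ccl6 are in the alveolar macrophage list, and Napsa, Sftpa1, Sftpc and Sftpd are in the AT2 list. All 18 alveolar macrophage markers found had a positive genotype log2 fold change (median 0.79, against 0.04 for all genes tested). By edgeR 0 of 18 were called, and 9 of 18 were higher without overlap, against 2.99% of all genes tested. Their summed level was 6760 to 9910 RPM in α7G and 10300 to 19300 RPM in α7E260A:G. All 9 AT2 markers tested had a negative log2 fold change (median -1.2). Of these 0 of 9 were called, and 7 of 9 were lower without overlap, against 5.15% of all genes tested. Their sum was 20200 to 30800 RPM in α7G and 4820 to 14900 RPM in α7E260A:G. The AT1 sum was 416 to 488 RPM in α7G and 167 to 342 RPM in α7E260A:G, without overlap. The club cell sum was 53700 to 85600 and 23500 to 54300 RPM, the ciliated cell sum 1820 to 3140 and 1530 to 2780 RPM, and the endothelial sum 483 to 561 and 214 to 568 RPM, all with overlap. The sum of general epithelial markers was 1210 to 1890 and 1000 to 1520 RPM, with overlap. Of these 5 genes 4 had a negative log2 fold change, and 1, Epcam, was lower without overlap. Of leukocytes, the sum of other macrophage and monocyte markers was 3420 to 4960 and 4860 to 6210 RPM, that of neutrophil markers 1530 to 3210 and 1400 to 3590 RPM, and that of general leukocyte markers 4110 to 5330 and 4020 to 4700 RPM, again with overlap. The eosinophil sum was 133 to 223 RPM in α7G and 237 to 323 RPM in α7E260A:G, without overlap. In that list 2 of 6 genes found passed the filter and 0 were called. These were Siglec5, also in the macrophage list, and Ear6, a ribonuclease gene at 2.89 to 5.98 RPM in α7G and 6.34 to 81.3 RPM in α7E260A:G. Below the filter Il5ra was at 3.52 to 6.62 and 0.731 to 2.07 RPM, and Epx was at 0 in all libraries. Their part in the member differences was not tested.

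Set against the markers, Chi3l3 was at 92.4 to 133 RPM per 100 RPM of summed alveolar macrophage markers in α7G and at 140 to 185 in α7E260A:G, without overlap. Lyz2 was at 104 to 127 and at 89.8 to 124, with overlap. Abundant markers such as Ccl6 and Cd9 (means of 1840 and 1930 RPM in α7G) weigh most in this sum. Of single markers Fabp4, Fabp5 and Marco had larger genotype log2 fold changes (2.78, 2.38 and 1.75) than Chi3l3 (1.47), and the others had smaller ones. Whether Chi3l3 differed beyond macrophage content was not tested. Per 100 RPM of summed AT2 markers, Chi3l1 was at 1.94 to 2.73 in α7G and at 1.79 to 2.59 in α7E260A:G, Lyz1 was at 0.602 to 0.901 and at 0.531 to 0.967, and Chia was at 0.473 to 0.639 and at 0.442 to 0.939. These 3 members overlapped between genotypes on this scale. Sftpc made up most of the AT2 sum (means of 15200 RPM in α7G and 5560 RPM in α7E260A:G), so the scale is near a ratio to that gene. Chia, which airway epithelium secretes, was not set against the club cell markers. Lyz2, which AT2 cells also make, was not set against the AT2 markers.

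**Figure D4:**
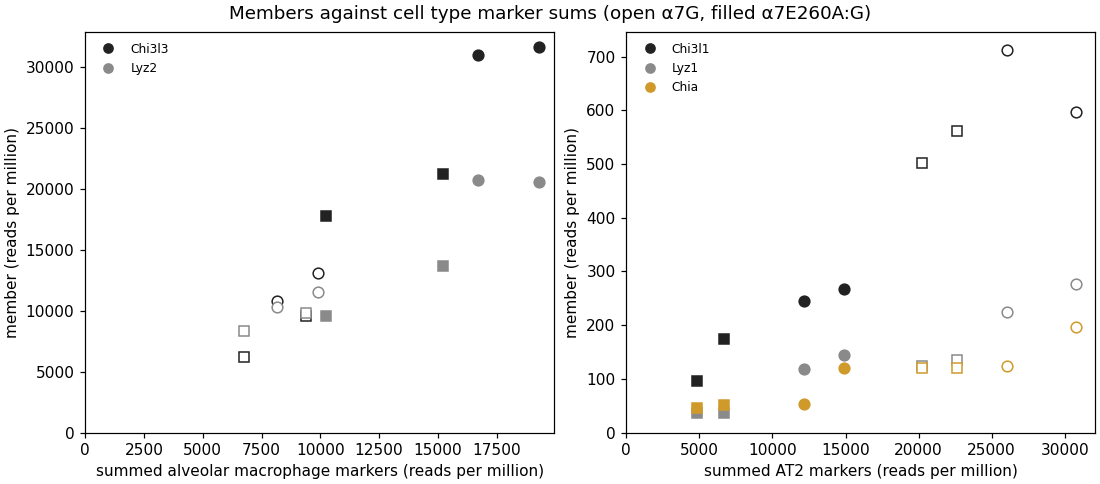
The RPM of members in the 8 libraries is plotted against the summed level of alveolar macrophage markers (left, Chi3l3 and Lyz2) and AT2 markers (right, Chi3l1, Lyz1 and Chia), with open α7G and filled α7E260A:G points, squares male and circles female, on linear axes from 0. Chi3l3 and Lyz2 are high where macrophage markers are high, and Chi3l1, Lyz1 and Chia are low where AT2 markers are low.

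Genes of the surrounding pathways were taken as lists. Beside their counts without overlap stand the shares of all genes tested, 2.99% higher and 5.15% lower in α7E260A:G. Among receptors of chitin and of chitinase-like proteins, 7 of 10 found passed the filter, 0 were called, and 3 were higher and 1 lower in α7E260A:G without overlap. Mrc1, a mannose receptor of macrophages, was at 639 ± 221 RPM (SD, n = 4) in α7G and 1210 ± 341 RPM in α7E260A:G, and Clec7a (dectin-1) at 315 ± 7.41 and 563 ± 134 RPM. Ager, a receptor of AT1 cells, was lower, at 261 ± 35.6 and 112 ± 53.8 RPM. Il13ra2, a receptor for Chi3l1, had 1 count in all libraries together.

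The IL4 and IL13 pathway, which acts through STAT6 and is known to raise Chi3l3 and Chia, held 28 genes, of which 13 passed the filter and 0 were called. The median genotype log2 fold change was 0.07, with 1 gene higher and 1 lower in α7E260A:G without overlap. The higher was Mrc1, also in the receptor list, and the lower was Il33, an epithelial alarmin, at 34.9 to 45.4 RPM in α7G and 14.4 to 30.1 RPM in α7E260A:G. Il13 had a mean of 3.75 counts per library and Il4 of 17.8. Stat6 was at 289 RPM in α7G and 335 RPM in α7E260A:G (edgeR adjusted p = 0.711), and the targets Retnla (187 and 213 RPM) and Arg1 (5.67 and 3.68 RPM) overlapped between genotypes.

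Relatives of the chitinases and enzymes that handle chitin sugars in lysosomes and cytosol numbered 7. Of these 6 passed the filter (all but Ovgp1), 0 were called, and all 6 had positive genotype log2 fold changes (median 0.42). Hexa, a lysosomal hexosaminidase, was at 465 RPM in α7G and 755 RPM in α7E260A:G without overlap (edgeR adjusted p = 0.139). Of 8 lysozyme relatives 6 were at 0 in all libraries, and none passed the filter. In the list of peptidoglycan sensors and secreted antibacterial proteins 12 of 17 passed the filter and 0 were called, with 4 lower and 1 higher without overlap and a median of -0.55. Slpi, a protease inhibitor, was at 260 and 606 RPM in α7G and α7E260A:G, and Bpifa1 (SPLUNC1), an airway protein, at 4190 and 1690 RPM. Of myeloid transcription factors and growth factor receptors 8 of 11 passed, 0 were called, and 3 were higher without overlap, among them Pparg at 129 and 204 RPM.

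Stretches of 250 bases before the transcription start were scanned for short motifs. The reason was that Lyz1 and Lyz2 are near copies whose mean RPM went in opposite directions between genotypes, each with overlap. RefSeq promoters (GRCm38.p6) were found for all 9 members by symbol or older symbol. The Lyz2 and Lyz1 stretches were 80.6% identical over 248 aligned bases. The motifs, on both strands, were AGGAAGT (ETS factors), GAGGAA (PU.1, itself an ETS factor), TTGCNNAA (C/EBP), the STAT6 palindrome (TTC and GAA with 4 bases between them) and CACTTGA (NKX2-1, a lung epithelial factor), which 7.69%, 23.3%, 9.56%, 5.85% and 2.68% of 32851 promoters held. AGGAAGT was found in 4 of 9 members, Lyz2, Lyz1, Chi3l3 and Chi3l4. These are the pairs of close copies described above, so the hits within a pair are not independent. CACTTGA was found in Lyz2 and Lyz1, in each 130 bases before the start, and TTGCNNAA in Lyz1 and Chi3l4. The STAT6 and GAGGAA letters were in none of the 9 windows. Motif matches are in capitals in Lyz2 (chr10:117282273-117282522, minus strand), Lyz1 (chr10:117292869-117293118, minus strand) and Chi3l3 (chr3:106167565-106167814, minus strand).
Lyz2 promoter: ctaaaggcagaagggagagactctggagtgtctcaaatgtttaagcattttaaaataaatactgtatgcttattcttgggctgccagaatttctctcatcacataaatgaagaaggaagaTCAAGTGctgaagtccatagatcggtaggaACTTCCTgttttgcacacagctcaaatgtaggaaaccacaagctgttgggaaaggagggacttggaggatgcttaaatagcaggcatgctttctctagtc
Lyz1 promoter: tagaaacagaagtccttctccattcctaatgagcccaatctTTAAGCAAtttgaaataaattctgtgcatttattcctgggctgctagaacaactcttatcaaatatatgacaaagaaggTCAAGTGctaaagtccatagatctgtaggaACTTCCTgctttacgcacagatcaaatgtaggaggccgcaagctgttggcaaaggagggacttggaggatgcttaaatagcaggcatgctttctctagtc
Chi3l3 promoter: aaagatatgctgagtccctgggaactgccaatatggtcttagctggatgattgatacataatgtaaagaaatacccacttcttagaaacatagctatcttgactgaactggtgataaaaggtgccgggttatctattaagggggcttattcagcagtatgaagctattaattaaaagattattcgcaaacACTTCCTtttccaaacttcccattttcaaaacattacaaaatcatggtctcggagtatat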

How the data were processed

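RNA-Seq was analysed from 8 libraries of 4 groups, made with a strand-specific kit. The authors aligned reads with STAR to build mm9 (NCBIM37) and used HTSeq to count those on the coding sequences of GENCODE release M1 (tool versions are not given in the sources used here). The deposited values are raw counts for 22756 genes. Library totals of 8020726 to 10944100 served to compute RPM, and floors of 3 counts cover counting error only.

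The abundance filter was modelled on that of the study (average count 200, without immunoglobulin, histocompatibility, Gm and ribosome subunit genes, removed here by symbol). It left 7190 genes, slightly more than the paper reports. The model had 1 mean per group and was fitted with edgeR 4.0.16 (quasi-likelihood, TMM, R 4.3.3, limma 3.58.1), with p adjusted by Benjamini-Hochberg over all genes tested and called at 0.05. DESeq2 1.42.0 was an alternative. For the length offset, deviations of log2 counts from the gene mean were smoothed against log2 coding length in every library (lowess, span 0.667). Single values were tested by two-sided exact permutation over 70 arrangements of 4 against 4 libraries. Log2 RPM used a pseudocount of 0.5. The fits were also run on simulated counts in which all genes shared the same dispersion and the sexes did not differ. These libraries are less uniform, so that run does not settle how the fits perform on them. Python 3.11.15, numpy 2.4.6, pandas 2.3.3 and matplotlib 3.10.9 served for the rest. Genes named were all members, genes of the lists, and for each tested member the 3 genes with the highest Pearson correlation. The members and lists were chosen with earlier results of these data known.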

Additional observations from a re-analysis of the deposited data

Results flagged for a closer look

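A library stood apart from the other 3 of its genotype or exposure in 5 of the 52 sets of 4 values examined, where chance gives about 1 in 20 sets. Chia was at 197 RPM in the female α7G library after CS, against 121 to 123 RPM in the other α7G libraries. Chia was also at 121 RPM in the female α7E260A:G library after CS, against 45.3 to 53.6 RPM in the other α7E260A:G libraries. Chi3l4 was at 15.1 RPM in the female α7G control, against 3.85 to 5.64 RPM. Chid1 was at 27.9 RPM in the male α7G control, against 36.2 to 37.7 RPM in the other controls, a set that holds both genotypes. In the male α7G library after CS it was also low, at 26.5 RPM. Lyz2 was at 20720 RPM in the female α7E260A:G control, against 8336 to 10350 RPM in the other controls, again a set of both genotypes. In the female α7E260A:G library after CS it was also high, at 20530 RPM. The causes were not tested.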

How the results depend on the processing

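The number of members called for genotype was 0 of 6 with edgeR (0.0834% of all genes), 2 with DESeq2 (5.87%) and 3 with the coding length offset (6.62%). It was 0 with library size scaling (0.125%), DESeq2 size factors in edgeR (0.0834%) and other filters (0.0919% and 0.393% of their genes). With 1 library left out the edgeR log2 fold change was 1.11 to 1.7 for Chi3l3 and -2.04 to -1.19 for Chi3l1. The replicate number of the labels stands for sex (1 male, 2 female), and deviations of equal numbers correlated between groups with r from -0.0936 to 0.835, under 0.1 in 2 of 6 pairs of groups. Sex is a labelled factor that all groups share. The model without a term for it followed the study, which averaged males and females, and its p-values for genotype count the male to female difference as spread. With the replicate number as a block, 0 of 6 were called (adjusted p = 0.0592 for Chi3l3 and Chi3l1, edgeR) against 0.556% of all genes. With the block and the length offset together 5 of 6 were called, against 9.37% of all genes (edgeR adjusted p = 0.00154 for Chi3l3, 0.00414 for Chi3l1, 0.00489 for Lyz1, 0.00908 for Lyz2, 0.0239 for Chia and 0.279 for Chid1). Chosen after seeing the data, the filterByExpr gene set in that fit gave 5 (5.02% of its genes), and leaving out 1 library in that fit gave 3 to 5 (2.49 to 11% of all genes). For CS over both genotypes, CS in α7E260A:G and the difference between genotypes no fit called a member, and the highest shares of all genes in any fit were 0.751%, 0.153% and 0.0417%. For CS in α7G none was called either, with 16% of all genes in the fit of the 4 α7G libraries alone and at most 0.355% in any other.

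By exact permutation of RPM 2 of 9 members had p under 0.05 for genotype (8.14% of the 7190 genes tested), 4 with the length dependence removed (12.1%), and 1 to 3 with 1 library left out (5.17 to 7.62%). Within sex and exposure the 16 arrangements allow no p under 0.125. The Chi3l3/Lyz2 log2 difference between genotypes was 0.703 with length removed (exact permutation p = 0.0857). With 1 library left out the CS difference of the log2 ratio was -0.159 to 0.276 for Chi3l3/Lyz2, -0.589 to 0.47 for Lyz1/Lyz2 and -1.16 to 0.0654 for Chi3l1/Chi3l3. The Chi3l4/Chi3l3 genotype difference was -1.05 to -0.487, and without the female α7G library after CS its exact permutation p was 0.0286.

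Signs of the small CS log2 fold changes turned. For Lyz2 it was -0.12 with the offset, -0.12 with block and offset and -0.05 with filterByExpr added. For Lyz1 it was -0.09, -0.21 and -0.14. With 1 library left out it was -0.08 to 0.64 for Lyz2, -0.56 to 0.89 for Lyz1, -0.73 to 0.12 for Chi3l1 and -0.16 to 0.12 for Chid1, and Lyz2 and Lyz1 stayed under 0 in the fit with block and offset. There Lyz2 was at -0.07 without either male α7G library, -0.14 without either male α7E260A:G library, -0.17 without either female α7G library and -0.1 without either female α7E260A:G library. Lyz1 was at -0.02 and -0.12 without the male α7G control and CS library, -0.16 and -0.05 without the male α7E260A:G ones, -0.41 and -0.29 without the female α7G ones and -0.27 and -0.38 without the female α7E260A:G ones. The causes were not tested. Chi3l4, Chi3l7 and Chit1 were limited by depth.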
